A study of Homo sapiens with 10 samples.

Results

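The genes described here are 37 genes of DNA replication and of the step from G1 into S phase. They were chosen by symbol for what they are known to do and not by a threshold on their values. The choice of these genes and of the further lists below was made with earlier results of these data known. Their shares of calls are therefore descriptions. All 37 were found among the 62750 gene IDs of the count table, and all 37 passed the filter on low counts that left 15740 genes to test. The cells were 12Z, an established line of epithelial cells from a peritoneal endometriosis lesion, immortalized with the SV40 T antigen, a viral protein known to bind proteins of the RB family. Endometriosis is the growth of endometrium-like tissue outside the uterus.

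Every culture was grown with 10% fetal bovine serum, starved overnight in medium with 2% charcoal-stripped serum, given a pretreatment of 30 min and collected at 6 h. The vehicle group had DMSO and no cytokine, and the IL1β group had DMSO and 10 ng/ml IL1β, an inflammatory cytokine. The remaining groups had the same IL1β after CDD-2728 at 1 µM or at 10 µM, or after CDD-3013 at 1 µM, compounds given by the labels as inhibitors of the stress kinase JNK. Each of the 5 groups had 2 libraries of poly(A) RNA, and no group had an inhibitor without IL1β. Nothing states that the libraries of a group came from separate cultures, so the p-values measure the spread between libraries, which may be technical.

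Before S phase, CDC6 and CDT1 load the MCM2 to MCM7 ring onto origins, which licenses them. CDC45, the GINS complex and MCM10 then turn the ring into a working helicase, RPA coats the single strand, RFC loads the PCNA clamp, and the polymerases copy the DNA. Cyclin E and the phosphatase CDC25A drive CDK2 at the G1/S step, and E2F1 is the founding member of the transcription factor family that is known to activate most of these genes when RB is inactivated.

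The promoters of these genes were searched for short sequence words. In RefSeq promoter windows (GRCh38.p14, 300 bases, from 250 before to 50 after the gene start), 32 of the 37 genes had an entry, and MCM4, MCM5, GINS4, RPA2 and CCNE2 had none. An E2F word (TTTCCCGC, TTTCGCGC, TTTGCCGC or TTTGGCGC on either strand, with overlapping matches counted) stood in 19 of the 32 windows (59.4%), against 1164 of all 35116 windows (3.31%). CCAAT, the word bound by NF-Y, stood on either strand in 19 of 32 (59.4%) against 34.6% of all windows. The AP-1 word TGACTCA or its complement TGAGTCA, the usual site of the JUN and FOS proteins downstream of JNK, was in 0 of 32. It was in 4.95% of all windows, and with only 32 windows 0 is close to that share. For each of the 32 genes the first window listed was taken, while the shares of all windows count every entry. A match is a description of letters and not a bound site.

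Stretches of 100 bases upstream of 7 starts are printed 5′ to 3′ on the gene's strand, with the E2F words in capitals. They are shown because CDC25A and CCNE1 rose with IL1β, because MCM7, PCNA, E2F1 and TK1 rose with CDD-3013, and because MCM6 had the most words, 4, and was called in no comparison. The stretches are the bases -100 to -1 from the start, except for MCM6, where they are -160 to -61. CCNE1 and TK1 had no E2F word in the whole window.
CDC25A, chr3:48188418-48188517, minus strand: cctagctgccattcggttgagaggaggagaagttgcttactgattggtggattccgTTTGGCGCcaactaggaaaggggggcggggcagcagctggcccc
CCNE1, chr19:29811891-29811990, plus strand: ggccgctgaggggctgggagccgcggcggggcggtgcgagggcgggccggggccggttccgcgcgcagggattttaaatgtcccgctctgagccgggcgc
MCM7, chr7:100101398-100101497, minus strand: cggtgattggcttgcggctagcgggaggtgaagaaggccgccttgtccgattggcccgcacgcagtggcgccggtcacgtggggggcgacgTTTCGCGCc
PCNA, chr20:5126623-5126722, minus strand: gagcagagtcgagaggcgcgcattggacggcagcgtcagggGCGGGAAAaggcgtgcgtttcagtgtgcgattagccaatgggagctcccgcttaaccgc
E2F1, chr20:33686386-33686485, minus strand: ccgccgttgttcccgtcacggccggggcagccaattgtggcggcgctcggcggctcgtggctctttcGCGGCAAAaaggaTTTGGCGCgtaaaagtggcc
TK1, chr17:78187205-78187304, minus strand: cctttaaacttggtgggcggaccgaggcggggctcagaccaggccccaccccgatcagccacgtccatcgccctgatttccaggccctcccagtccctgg
MCM6, chr2:135876504-135876603, minus strand: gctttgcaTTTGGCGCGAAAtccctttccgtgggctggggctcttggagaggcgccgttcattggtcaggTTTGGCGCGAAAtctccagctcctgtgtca

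Total counts were 16312600 to 19479416 per library, and log2 levels of the libraries of a group correlated across genes at 0.9901 to 0.9925. KRT8 was the most abundant of 8 epithelial markers (mean 6772 CPM), while EPCAM and CLDN4 were under 1 CPM. Of the other marker lists, COL1A1 led the stromal genes (2800 CPM) and LRRN4 the mesothelial genes (464 CPM). Of 7 immune markers, 5 were under 1 CPM.

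All the replication genes were expressed in every library. CPM divides each count by the library's size as corrected by TMM, edgeR's normalization for composition. Per kb of the longest coding transcript, mean levels over the 10 libraries ran from 264 CPM per kb for TK1, the salvage thymidine kinase, to 2.52 CPM per kb for CCNE1, which encodes cyclin E1. PCNA (187 CPM per kb) and MCM7 (174 CPM per kb) followed TK1, and CCNE2 (4.63 CPM per kb), the other cyclin E gene, stood just above CCNE1. The subunits of the MCM ring spanned 32.1 CPM per kb for MCM6 to 174 CPM per kb for MCM7. CCNE1 had 51 to 120 counts per library, so its values carry the widest errors of the set.

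**Figure D1:**
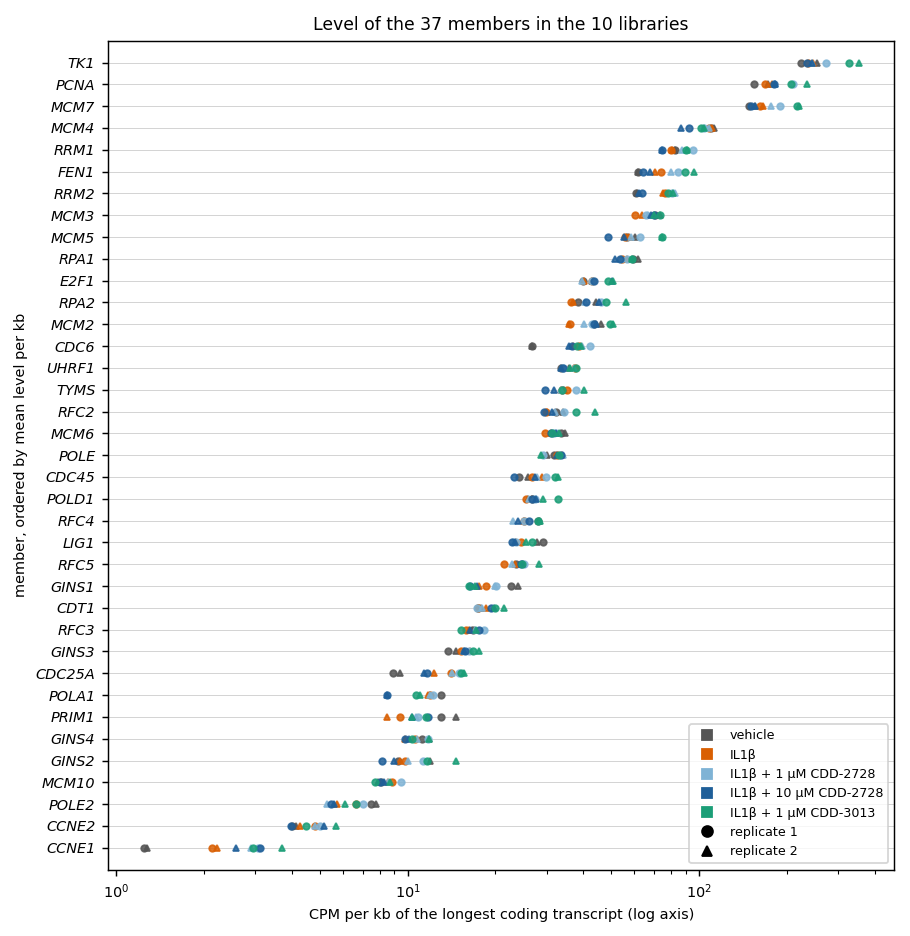
Level of each gene in each of the 10 libraries, as CPM per kb of the longest coding transcript on a log axis, ordered by the mean, with color for the treatment group and symbol for the replicate. TK1 is highest at 264 CPM per kb on average and CCNE1 lowest at 2.52, and both vehicle libraries of CCNE1 lie below its other 8.

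The sum over the 37 genes was 4707 and 4892 CPM in the vehicle libraries, and 4817 and 4881 CPM with IL1β. It was 5231 and 5034 CPM with 1 µM CDD-2728, 4633 and 4692 CPM with 10 µM CDD-2728, and 5531 and 5694 CPM with CDD-3013. The vehicle and IL1β libraries therefore overlapped in the sum, both CDD-3013 libraries were above all others, and both 10 µM CDD-2728 libraries were below all others. In these bulk samples fewer cells in S phase and less of these RNAs per cell cannot be told apart.

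IL1β changed 10 of the 37 replication genes, in both directions. Against vehicle, 5 of 37 rose (13.5%) and 5 fell (13.5%) at an edgeR adjusted p under 0.05, the threshold for every call here, while 17.6% of all tested genes rose and 15.0% fell. Neither share of the replication genes was above that of all genes, and their median log2 fold change was -0.02, with -0.01 over all tested genes. The libraries of the groups did not overlap for 12 genes with IL1β higher and 16 with IL1β lower, against 33.0% and 33.7% of all genes. The genes that rose were the licensing factor CDC6, the phosphatase CDC25A, cyclin E1, the ribonucleotide reductase subunit RRM2 and the flap endonuclease FEN1. The genes that fell were the helicase subunits MCM2 and MCM3, GINS1, the primase catalytic subunit PRIM1 and the DNA ligase LIG1.

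Among licensing genes, CDC6, the loader of the MCM ring, was at 128 and 128 CPM in the vehicle libraries and at 187 and 178 CPM with IL1β. With inhibitors present it was at 202 and 190.4 CPM (1 µM CDD-2728), 177 and 172 CPM (10 µM CDD-2728) and 183 and 188 CPM (CDD-3013). All 8 libraries with IL1β were above both vehicle libraries, and CDC6 rose by 0.51 ± 0.08 log2 (± SE, edgeR adjusted p = 1.13e-06). No inhibitor arm was called against IL1β for CDC6.

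MCM2, a subunit of that ring, went the other way. It was at 158 and 167 CPM in vehicle and at 130.3 and 129 CPM with IL1β, and then at 156 and 146 CPM (1 µM CDD-2728), 158 and 161 CPM (10 µM CDD-2728) and 180 and 183 CPM (CDD-3013). The IL1β libraries were the lowest of the 10 and the CDD-3013 libraries the highest. MCM2 fell by 0.32 ± 0.08 log2 with IL1β (edgeR adjusted p = 0.000415). MCM3, another ring subunit, fell by 0.21 ± 0.08 log2 (edgeR adjusted p = 0.0127), and MCM6 had a log2 fold change of -0.17 ± 0.08 that missed the threshold (edgeR adjusted p = 0.0521).

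The other ring subunits and CDT1 had log2 fold changes between -0.04 (MCM5) and 0.11 (MCM7), none of them called. MCM2 shares 23.6% of its exon bases with genes on the opposite strand, TPRA1 and AC023593.1, and whether counting used strand is not given in the sources used here. TPRA1 itself rose with IL1β by 0.37 log2 (edgeR adjusted p = 0.00136). The part of these overlapping genes in the MCM2 counts was not tested.

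Of the 6 genes that activate the helicase, GINS1 alone was called. GINS1, a subunit of the GINS complex, was at 73.7 and 77.5 CPM in vehicle, at 60.5 and 57.1 CPM with IL1β, at 65.1 and 64.7 CPM with 1 µM CDD-2728, at 53.3 and 56.2 CPM with 10 µM CDD-2728 and at 52.9 and 55.5 CPM with CDD-3013. Both vehicle libraries were above all 8 with IL1β, and GINS1 fell by 0.36 ± 0.09 log2 (edgeR adjusted p = 0.00065). MCM10, CDC45, GINS2, GINS3 and GINS4 had log2 fold changes of -0.17 to 0.16.

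None of the 7 clamp, clamp loader and RPA genes was called with IL1β. PCNA, the sliding clamp, was at 209 and 234 CPM in vehicle and at 228 and 242 CPM with IL1β, so the groups overlapped, with a log2 fold change of 0.08 and a 95% interval of -0.09 to 0.25.

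PRIM1, which makes the RNA primers for each new strand, had the largest decrease of the set. It was at 18.2 and 20.4 CPM in vehicle and at 13.2 and 11.8 CPM with IL1β, then at 15.1 and 14.8 CPM (1 µM CDD-2728), 16.4 and 14.4 CPM (10 µM CDD-2728) and 16.1 and 14.4 CPM (CDD-3013). The vehicle libraries were the highest and the IL1β libraries the lowest of the 10. PRIM1 fell by 0.62 ± 0.13 log2 (edgeR adjusted p = 0.000358). It shares 16.2% of its exon bases with NACA and another gene on the same strand. NACA had a log2 fold change of -0.04 in this comparison (edgeR adjusted p = 0.76). The part of the shared bases in the PRIM1 counts was not tested.

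At the joining of Okazaki fragments the pair of genes parted. LIG1, the ligase, was at 115 and 110.1 CPM in vehicle and at 97.0 and 93.0 CPM with IL1β, and fell by 0.25 ± 0.08 log2 (edgeR adjusted p = 0.0071). FEN1, which trims the flaps that the ligase then seals, was at 142 and 142 CPM in vehicle and at 169.8 and 162 CPM with IL1β, and rose by 0.23 ± 0.08 log2 (edgeR adjusted p = 0.0102). For both genes the vehicle and IL1β libraries did not overlap.

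RRM2, the regulated subunit of the enzyme that makes deoxynucleotides, was at 224 and 225 CPM in vehicle and at 281 and 276 CPM with IL1β. It was at 297 and 304 CPM with 1 µM CDD-2728, at 234 and 229 CPM with 10 µM CDD-2728 and at 288 and 298 CPM with CDD-3013. The 10 µM libraries were just above vehicle and the other libraries with IL1β were at 276 CPM or more. RRM2 rose by 0.32 ± 0.08 log2 with IL1β (edgeR adjusted p = 0.000355). Its partner RRM1 had a log2 fold change of -0.04, TYMS 0.01 and TK1 0.01, and none of the 3 was called.

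Among G1/S regulators, CDC25A was at 33.8 and 35.7 CPM in vehicle and at 53.2 and 46.5 CPM with IL1β, a rise of 0.52 ± 0.10 log2 (edgeR adjusted p = 4.55e-05). CCNE1 was at 2.54 and 2.61 CPM in vehicle and at 4.36 and 4.52 CPM with IL1β, then at 6.26 and 5.93 CPM (1 µM CDD-2728), 6.35 and 5.26 CPM (10 µM CDD-2728) and 6.00 and 7.59 CPM (CDD-3013). Both vehicle libraries were below all 8 others, and both IL1β libraries were below all 6 with an inhibitor. CCNE1 rose by 0.79 ± 0.23 log2 with IL1β (edgeR adjusted p = 0.00656), the largest fold of the set.

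Neither the other cyclin E gene nor the E2F factor followed CCNE1. CCNE2 was at 13.4 and 13.8 CPM in vehicle and at 16.0 and 14.2 CPM with IL1β, with a log2 fold change of 0.15 and a 95% interval of -0.14 to 0.44. E2F1 was at 99.7 and 107 CPM in vehicle and at 107 and 101 CPM with IL1β, with a log2 fold change of 0.01 and a 95% interval of -0.16 to 0.19. The vehicle and IL1β libraries overlapped for E2F1. UHRF1, a reader of newly replicated methylated DNA, had a log2 fold change of 0.10 that was not called.

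**Figure D2:**
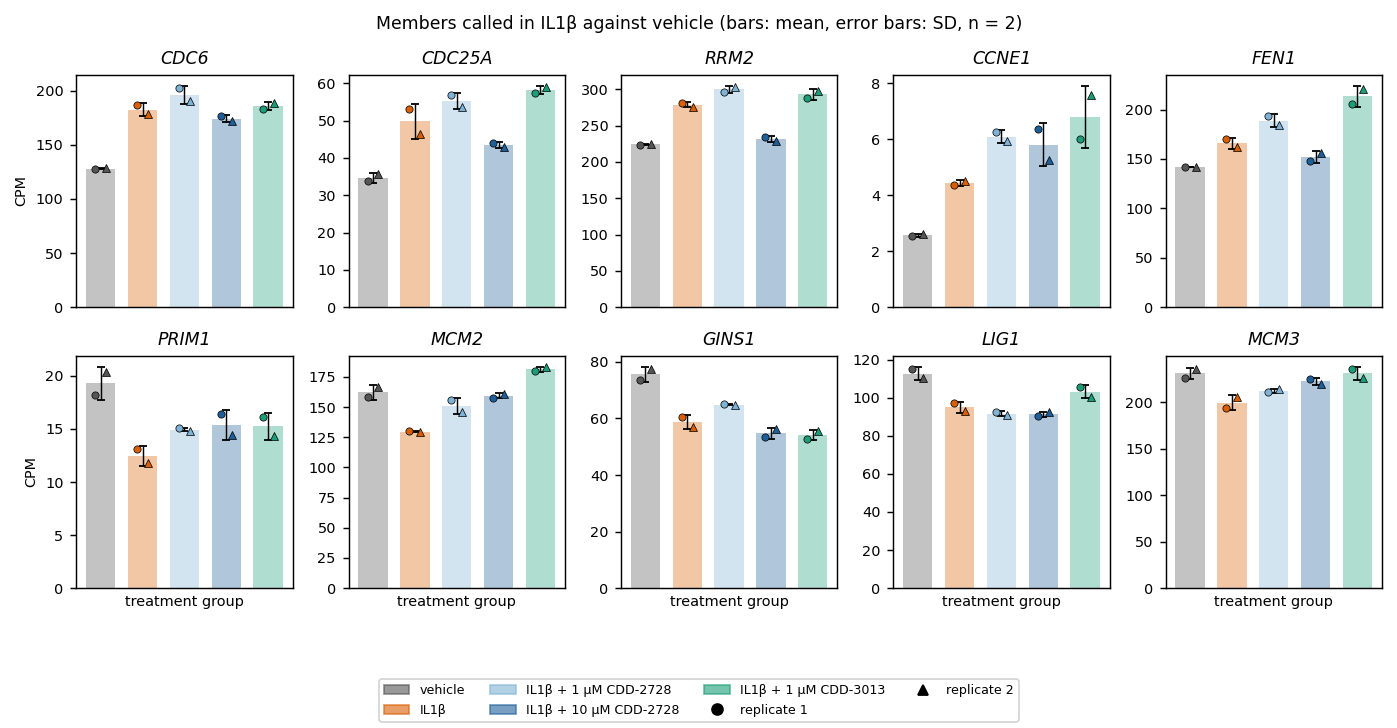
CPM in each library of the 10 genes called with IL1β against vehicle, with bars at the mean and error bars at the SD of 2 libraries. CDC6, CDC25A, RRM2, CCNE1 and FEN1 have both IL1β libraries above both vehicle libraries, and PRIM1, MCM2, GINS1, LIG1 and MCM3 have them below.

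The counts of 5 and 5 depended on the scaling. Scaling by library totals in place of TMM moved the median of all tested genes to -0.18 log2, and with it the members' median to -0.19. It gave 3 genes higher (8.1%, with 10.3% of all tested genes) and 19 lower (51.4%, with 30.1% of all). CDC6, CDC25A and CCNE1 were higher, and MCM2, MCM3, GINS1, PRIM1 and LIG1 lower, under both scalings. Offsets that remove each library's trends of level with transcript length and GC content gave 9 higher (24.3%) and 6 lower (16.2%). These shares were close to the 22.4% and 15.4% of all tested genes. The offsets added MCM7, CDC45, GINS3 and PCNA to the genes that rose and MCM6 to those that fell.

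With 1 µM CDD-2728, no replication gene was called against IL1β in either direction, and 2.03% of all tested genes were called higher and 2.57% lower. The count at an unadjusted edgeR p under 0.05 was 7 higher and 0 lower, with 1376 higher and 1474 lower of all 15740 tested genes. DESeq2 called 0 in either direction, and the median log2 fold change was 0.10, with 0.00 over all genes. That median was 0.05 without replicate 1 and 0.16 without replicate 2 of the 1 µM CDD-2728 group. The smallest adjusted p was that of MCM2, with a log2 fold change of 0.22, a 95% interval of 0.05 to 0.39 and an edgeR adjusted p of 0.0591. TPRA1, which overlaps MCM2, rose by 0.36 ± 0.09 log2 (edgeR adjusted p = 0.0101). The libraries did not overlap for 19 genes with 1 µM CDD-2728 higher and 3 with it lower, against 23.4% and 24.5% of all genes. Whether any gene was called also depended on which library of the 1 µM CDD-2728 group was left out.

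At 10 µM, CDD-2728 changed few replication genes against IL1β and in both directions. MCM2 and RPA2 rose (5.4% of 37, with 15.6% of all tested genes higher), and POLA1, MCM4 and RRM2 fell (8.1% of 37, with 15.9% of all tested genes lower). Both shares were below those of all genes, and the median log2 fold change was -0.03 (0.01 over all genes). The libraries did not overlap for 11 genes with 10 µM higher and 17 with it lower, against 34.2% and 33.6% of all genes. By role, licensing had 1 gene higher and 1 lower, and the clamp and RPA genes had 1 higher. Polymerases and nucleotide supply had 1 lower each, and helicase activation, joining and the G1/S regulators had none.

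POLA1, the catalytic subunit of DNA polymerase alpha, was at 65.3 and 64.2 CPM with IL1β and at 46.6 and 46.7 CPM with 10 µM CDD-2728. It was at 71.3 and 65.6 CPM in vehicle, at 66.8 and 65.2 CPM with 1 µM CDD-2728 and at 58.7 and 60.5 CPM with CDD-3013. The 10 µM libraries stood apart below the other 8. POLA1 fell by 0.47 ± 0.09 log2 against IL1β (edgeR adjusted p = 6e-05).

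MCM4, another subunit of the ring, was at 453 and 463 CPM with IL1β and at 387 and 362 CPM with 10 µM CDD-2728, while vehicle (459 and 469.9 CPM), 1 µM CDD-2728 (434 and 452 CPM) and CDD-3013 (425 and 436 CPM) were all above the 10 µM libraries. MCM4 fell by 0.29 ± 0.08 log2 (edgeR adjusted p = 0.00138), and MCM2 rose by 0.30 ± 0.08 log2 (edgeR adjusted p = 0.0012). These 2 subunits of 1 complex thus changed in opposite directions in the same libraries. TPRA1, which overlaps MCM2, was at -0.05 log2 (edgeR adjusted p = 0.676), and its part in the MCM2 counts was not tested. RRM2 fell by 0.27 ± 0.08 log2 (edgeR adjusted p = 0.00195).

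RPA2, a subunit of the single-strand binding complex, was at 63.5 and 64.6 CPM with IL1β and at 71.9 and 79.7 CPM with 10 µM CDD-2728, and rose by 0.24 ± 0.09 log2, close to the threshold (edgeR adjusted p = 0.0493). The libraries of these groups did not overlap for RPA2. Its call was lost when some single libraries were left out, with log2 fold changes of 0.17 to 0.32 over the 13 alternatives. It was lost also with DESeq2, with scaling by relative log expression and with a replicate block. Scaling by library totals gave 5 higher (13.5%, E2F1, MCM3 and PRIM1 added) and the same 3 lower (8.1%), with 19.6% and 12.1% of all tested genes. The length and GC offsets gave 3 higher (8.1%) and 8 lower (21.6%), with 17.1% and 19.1% of all tested genes. The offsets added FEN1, MCM5, MCM7, TYMS and UHRF1 to the genes that fell.

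CCNE1, CDC6, CCNE2, PCNA and E2F1 were not called at 10 µM against IL1β. Their log2 fold changes were 0.39 (95% interval -0.04 to 0.82) for CCNE1, -0.07 (-0.23 to 0.10) for CDC6, 0.01 (-0.29 to 0.30) for CCNE2, 0.07 (-0.10 to 0.24) for PCNA and 0.17 (0.00 to 0.35) for E2F1.

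CDD-3013 gave calls in 1 direction. Against IL1β, 17 of 37 genes rose with 1 µM CDD-3013 (45.9%) and 0 fell, while 19.0% of all tested genes rose and 17.3% fell. The median log2 fold change was 0.17, with -0.01 over all tested genes. The libraries did not overlap for 25 genes with CDD-3013 higher and 3 with it lower, against 33.8% and 34.0% of all genes. By role, the genes that rose were 4 of 8 licensing genes, 2 of 6 helicase activation genes, 4 of 7 clamp, loader and RPA genes, 1 of 5 polymerase and primase genes, 1 of 2 joining genes, 2 of 4 nucleotide supply genes and 3 of 5 G1/S regulators. The 3 inhibitor arms share the IL1β libraries, so their values are set side by side and not counted as separate support.

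In the MCM ring, MCM2 went from 130.3 and 129 CPM with IL1β to 180 and 183 CPM with CDD-3013, and rose by 0.48 ± 0.08 log2 (edgeR adjusted p = 8.91e-06). TPRA1, which shares exon bases with MCM2, rose as well, by 0.70 ± 0.09 log2 (edgeR adjusted p = 1.58e-06), and its part in the MCM2 counts was not tested. MCM7 was at 497 and 513 CPM with IL1β and at 669 and 677 CPM with CDD-3013. Vehicle (458 and 480.1 CPM) and 10 µM CDD-2728 (466 and 478 CPM) were below IL1β, and 1 µM CDD-2728 (584 and 544 CPM) was between IL1β and CDD-3013. MCM7 rose by 0.41 ± 0.08 log2 (edgeR adjusted p = 4.37e-05).

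MCM5 was at 196 and 204 CPM with IL1β and at 263 and 263 CPM with CDD-3013, with vehicle at 199 and 213 CPM, 1 µM CDD-2728 at 222 and 207 CPM and 10 µM CDD-2728 at 172 and 195 CPM. The CDD-3013 libraries were above the other 8. MCM5 rose by 0.39 ± 0.08 log2 (edgeR adjusted p = 0.000149), and MCM3 by 0.21 ± 0.08 log2 (edgeR adjusted p = 0.012). MCM4 and MCM6, with log2 fold changes of -0.09 and 0.09, were not called, and CDT1 at 0.20 just missed the threshold (edgeR adjusted p = 0.051). CDC6 had a log2 fold change of 0.02 with a 95% interval of -0.14 to 0.19. Of the helicase activators, GINS2 rose by 0.44 ± 0.12 log2 (edgeR adjusted p = 0.00783) and CDC45 by 0.22 ± 0.09 log2 (edgeR adjusted p = 0.047), while GINS1 was at -0.12 and was not called.

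Among clamp, loader and RPA genes, RPA2 was at 84.0 and 98.2 CPM with CDD-3013 against 63.5 and 64.6 CPM with IL1β, 67.1 and 77.7 CPM in vehicle and 80.8 and 71.0 CPM with 1 µM CDD-2728. The CDD-3013 libraries were the highest of the 10, and RPA2 rose by 0.51 ± 0.09 log2 (edgeR adjusted p = 0.000188). RFC2, a subunit of the clamp loader, was at 64.2 and 74.6 CPM with CDD-3013 and at 50.7 and 51.1 CPM with IL1β, and rose by 0.45 ± 0.09 log2 (edgeR adjusted p = 0.000286).

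The RFC2 libraries of the other 3 groups lay between 49.7 and 58.1 CPM, below both CDD-3013 libraries. PCNA was at 282 and 319 CPM with CDD-3013, and at 285 and 248 CPM with 1 µM CDD-2728 and 246 and 248 CPM with 10 µM CDD-2728. Its CDD-3013 libraries were above IL1β and vehicle and overlapped those of 1 µM CDD-2728. PCNA rose by 0.36 ± 0.08 log2 against IL1β (edgeR adjusted p = 0.0011) and RFC5, another loader subunit, by 0.25 ± 0.09 log2 (edgeR adjusted p = 0.028). RFC3, RFC4 and RPA1 were not called, at log2 fold changes of 0.01, 0.16 and 0.09.

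Of the polymerases, POLD1, the catalytic subunit of polymerase delta, rose by 0.24 ± 0.09 log2 (edgeR adjusted p = 0.0115). POLA1, POLE, POLE2 and PRIM1 were not called, at -0.12, -0.10, 0.04 and 0.29 log2. FEN1 was at 206 and 221 CPM with CDD-3013, at 194 and 184 CPM with 1 µM CDD-2728 and at 148 and 156 CPM with 10 µM CDD-2728. For FEN1 the CDD-3013 libraries were the highest of the 10 and the vehicle libraries the lowest. FEN1 rose by 0.36 ± 0.08 log2 against IL1β (edgeR adjusted p = 0.000179), while LIG1 was at 0.12 and was not called. FEN1 shares 6.7% of its exon bases with TMEM258 on the opposite strand, which rose by 0.74 ± 0.12 log2 (edgeR adjusted p = 0.000172).

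TK1 was at 398 and 413 CPM with IL1β and at 549 and 593 CPM with CDD-3013. It was at 378 and 426 CPM in vehicle, at 459.7 and 409 CPM with 1 µM CDD-2728 and at 395 and 412 CPM with 10 µM CDD-2728. The first 4 groups overlapped and the CDD-3013 libraries stood above them. TK1 rose by 0.49 ± 0.08 log2 (edgeR adjusted p = 2.85e-05). RRM1 rose by 0.17 ± 0.08 log2 (edgeR adjusted p = 0.0387), and RRM2 and TYMS were not called, at 0.07 and 0.11 log2.

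Of the G1/S regulators, E2F1 was at 122 and 127 CPM with CDD-3013, at 107 and 99.6 CPM with 1 µM CDD-2728 and at 109 and 126 CPM with 10 µM CDD-2728. Its CDD-3013 libraries were above those of vehicle, IL1β and 1 µM CDD-2728 and overlapped those of 10 µM CDD-2728. E2F1 rose by 0.25 ± 0.08 log2 against IL1β (edgeR adjusted p = 0.0127). CCNE1 rose by 0.61 ± 0.20 log2 (edgeR adjusted p = 0.016) and CDC25A by 0.22 ± 0.10 log2 (edgeR adjusted p = 0.0419). CCNE2, at 14.9 and 18.9 CPM with CDD-3013, 16.7 and 16.0 CPM with 1 µM CDD-2728 and 13.2 and 17.2 CPM with 10 µM CDD-2728, had a log2 fold change of 0.16 (95% interval -0.13 to 0.45). Its groups overlapped, and UHRF1, at -0.02, was not called.

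**Figure D3:**
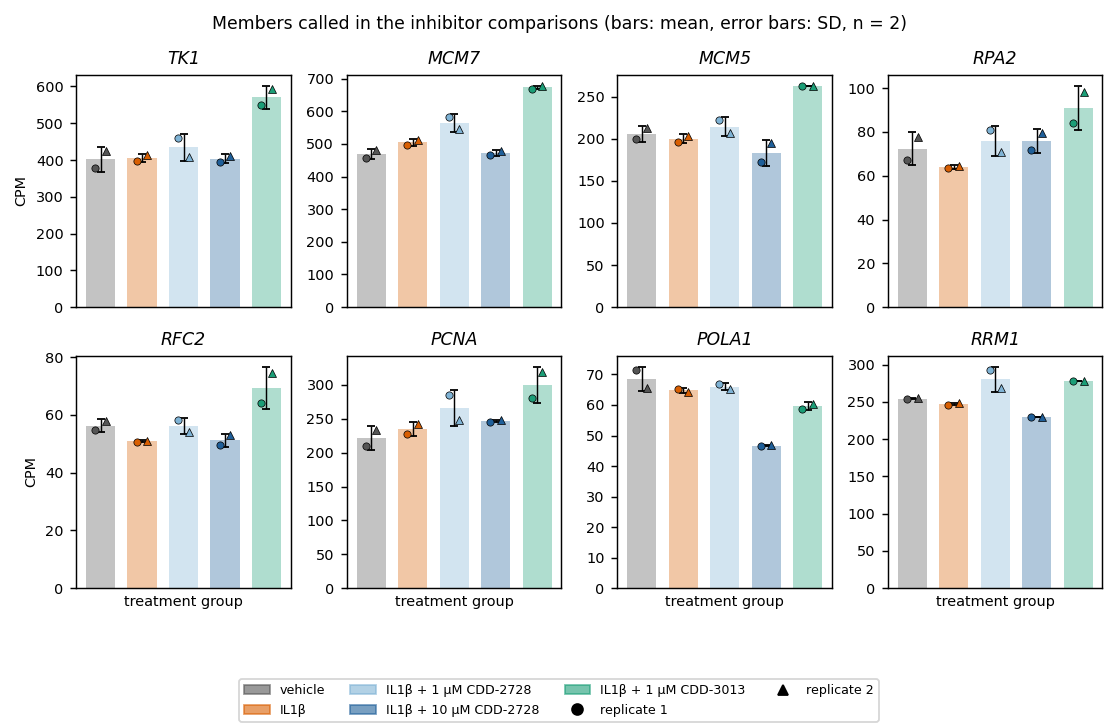
CPM in each library of 8 genes called in the inhibitor comparisons, with bars at the mean and error bars at the SD of 2 libraries. TK1, MCM7, MCM5, RPA2 and RFC2 have both CDD-3013 libraries above all others, and POLA1 has both 10 µM CDD-2728 libraries, at 46.6 and 46.7 CPM, below all others.

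Transcript length and GC content moved with the CDD-3013 result. Over 15317 tested genes with a transcript length, the log2 fold change of CDD-3013 against IL1β had a Spearman correlation across genes of -0.37 with length and 0.34 with GC content. Split by length into 4 equal parts, the genes with the shortest transcripts (up to 1920 bases) had a median of 0.28 log2, and those with the longest (from 4893 bases) a median of -0.25 log2. The same correlations across the 37 replication genes, which are not independent replicates and share the libraries, were -0.58 and 0.45. Their median length of 3208 bases was close to the 3096 bases of all these genes.

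With both trends removed, 14 genes rose with CDD-3013 (37.8%, with 14.0% of all tested genes) and 0 fell (with 11.3% of all). Of the 17 genes, 10 were among them: MCM2, MCM3, MCM5, MCM7, GINS2, RPA2, RFC5, FEN1, RRM1 and CDC25A. The calls of TK1, RFC2, PCNA, CCNE1, E2F1, POLD1 and CDC45 were lost, and those of CDC6, MCM6, RPA1 and RRM2 were added. With the offsets TK1 was at 0.13 log2 (edgeR adjusted p = 0.061), PCNA at 0.10 (edgeR adjusted p = 0.141) and E2F1 at 0.02 (edgeR adjusted p = 0.871), while MCM2 was at 0.40 (edgeR adjusted p = 3.41e-06) and MCM5 at 0.31 (edgeR adjusted p = 0.000163).

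**Figure D4:**
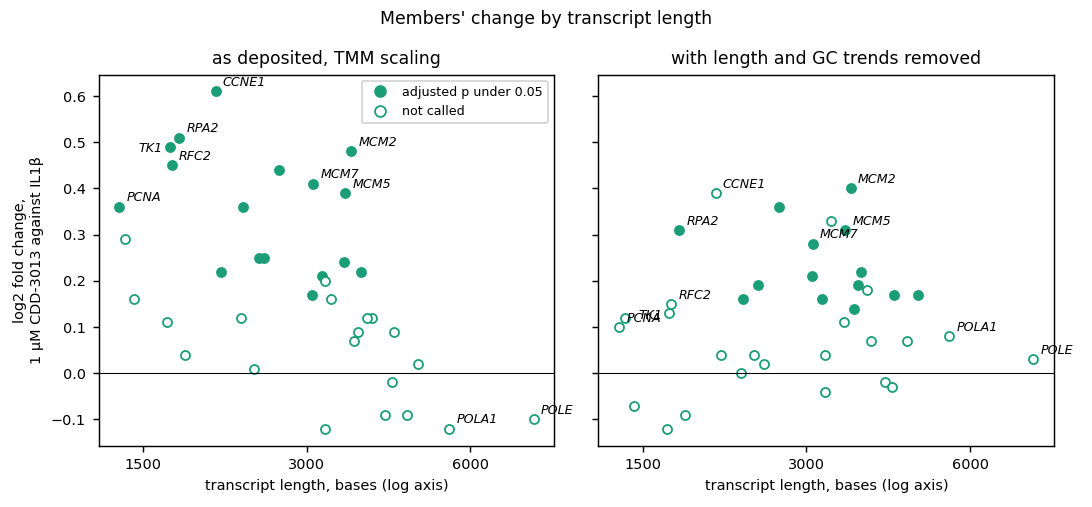
Log2 fold change of each of the 37 genes with 1 µM CDD-3013 against IL1β, against transcript length on a log axis, in the main edgeR fit (left) and with length and GC trends removed (right), with filled points for called genes. In the left panel the short TK1, RPA2 and RFC2 are at 0.45 to 0.51 and the long POLA1 and POLE near -0.1, and in the right panel TK1 is at 0.13 and POLA1 at 0.08, while MCM2 stays at 0.40.

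Scaling by library totals, which moved the median of all genes to -0.09 log2, gave 10 higher (27.0%) and 3 lower (8.1%). Of all tested genes, 14.5% were then higher and 22.5% lower. The 3 were GINS1, MCM4 and POLA1. The 10 were MCM2, MCM5, MCM7, GINS2, PCNA, RFC2, RPA2, FEN1, TK1 and CCNE1. Without replicate 1 and without replicate 2 of the IL1β group, the median log2 fold change was 0.18 and 0.17. Without replicate 1 and without replicate 2 of the CDD-3013 group it was 0.21 and 0.17. Not all of the 17 calls held in these fits. Genes called higher under all 13 alternatives were MCM2, MCM5, MCM7, FEN1 and RPA2. The summed level of the 8 epithelial markers was 12270 to 13480 CPM with CDD-3013, against 9020 to 9134 CPM with IL1β, and that of the 5 mesothelial markers 944 to 957 CPM against 769 to 770.0 CPM. Their part in the result was not tested.

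The doses of CDD-2728 were compared directly. At 10 µM against 1 µM, 9 of 37 genes were lower (24.3%) and 0 higher, while 13.8% of all tested genes were lower and 13.3% higher, and the median log2 fold change was -0.11 (0.01 over all genes). That median was -0.05 without replicate 1 and -0.19 without replicate 2 of the 1 µM group, and -0.03 with scaling by library totals. The libraries did not overlap for 18 genes with 10 µM lower and 4 with it higher, against 29.6% and 31.6% of all genes. POLA1 was lower by a log2 fold change of -0.50 ± 0.09 (edgeR adjusted p = 5.11e-05) and RRM2 by -0.38 ± 0.08 (edgeR adjusted p = 0.000105). FEN1 was at -0.31 ± 0.08 (edgeR adjusted p = 0.00112). For these 3 genes the libraries of the 2 doses did not overlap.

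RRM1, the large subunit of ribonucleotide reductase, was at 292 and 269 CPM with 1 µM and at 229.8 and 229.9 CPM with 10 µM, against 246 and 248 CPM with IL1β, 254 and 255 CPM in vehicle and 278 and 278 CPM with CDD-3013. The 10 µM libraries were the lowest of the 10, and the log2 fold change between doses was -0.29 ± 0.08 (edgeR adjusted p = 0.00177). CDC25A was at 56.9 and 53.7 CPM with 1 µM, at 44.1 and 43.0 CPM with 10 µM and at 57.5 and 59.1 CPM with CDD-3013. Its 10 µM libraries were between vehicle and IL1β, with a log2 fold change between doses of -0.34 ± 0.10 (edgeR adjusted p = 0.00423).

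The remaining 4 genes lower at 10 µM were MCM7 (-0.26 log2), MCM4 (-0.24 log2), MCM5 (-0.23 log2) and GINS1 (-0.25 log2), with edgeR adjusted p of 0.00514, 0.0074, 0.0191 and 0.0208. So 3 of 6 ring subunits were lower at the higher dose, and MCM2, at 0.08 with a 95% interval of -0.09 to 0.25, was not called. E2F1, at 0.18 (95% interval 0.01 to 0.36), CDC6, at -0.17 (edgeR adjusted p = 0.0504), PCNA, at -0.11, CCNE1, at -0.07, and CCNE2, at -0.11, were also not called. Scaling by library totals gave 2 higher (5.4%, CDT1 and E2F1) and 6 lower (16.2%), with 18.0% and 8.8% of all tested genes. The summed level of the 5 mesothelial markers was 621 to 664 CPM at 10 µM against 856 to 880 CPM at 1 µM, and that of the 8 epithelial markers 8128 to 8757 CPM against 8915 to 10660 CPM. The 8 stromal markers were lower as well, at 5268 to 5522 CPM against 5740 to 6493 CPM. The mesothelial and epithelial sums also differed without overlap between 10 µM CDD-2728 and IL1β, between IL1β and vehicle, and between the compounds at 1 µM. Their part in these differences was not tested.

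The compounds were compared at the matched dose of 1 µM, the only pair that allows it. CDD-3013 was higher than CDD-2728 for 8 of 37 genes (21.6%) and lower for 1 (2.7%), while 9.85% of all tested genes were higher and 8.01% lower. The median log2 fold change was 0.10 (0.00 over all genes), and 0.04 with the length and GC offsets or with scaling by library totals. The libraries did not overlap for 18 genes with CDD-3013 higher and 3 with it lower, against 28.3% and 27.2% of all genes. TK1 was higher by 0.39 ± 0.08 log2 (edgeR adjusted p = 0.00169), MCM5 by 0.29 ± 0.08 (edgeR adjusted p = 0.00642) and MCM2 by 0.27 ± 0.08 (edgeR adjusted p = 0.00718). TPRA1, which overlaps MCM2, was also higher, by 0.34 ± 0.09 log2 (edgeR adjusted p = 0.00586).

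MCM7 (0.26 log2), RFC2 (0.30 log2), E2F1 (0.26 log2) and RPA2 (0.26 log2) were higher too. CDT1, the partner of CDC6 in licensing, was at 56.1 and 58.1 CPM with CDD-2728 and at 64.4 and 69.2 CPM with CDD-3013, with IL1β at 56.3 and 60.2 CPM, 10 µM CDD-2728 at 62.4 and 63.9 CPM and vehicle at 56.4 and 57.6 CPM. It was higher by 0.23 ± 0.09 log2 (edgeR adjusted p = 0.0459). GINS1 was the gene with CDD-3013 lower, at -0.26 ± 0.09 log2 (edgeR adjusted p = 0.0222).

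For the 28 genes not called, the data do not show that the compounds acted alike. The 95% interval of the difference was -0.25 to 0.09 log2 for CDC6, -0.20 to 0.13 for RRM2, 0.00 to 0.34 for PCNA, -0.25 to 0.56 for CCNE1 and -0.24 to 0.33 for CCNE2.

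Length and GC content moved with this difference as well, with Spearman correlations across 15317 genes of -0.39 and 0.45, and of -0.48 and 0.67 across the 37 replication genes. With both trends removed, MCM5 was the 1 replication gene still called higher and 0 were lower, with 2.0% of all tested genes higher and 0.9% lower. Scaling by library totals gave 5 higher (13.5%, MCM2, MCM5, MCM7, RFC2 and TK1) and GINS1 lower (2.7%), with 6.6% and 12.5% of all tested genes. Without replicate 1 and without replicate 2 of the 1 µM CDD-2728 group, the median log2 fold change was 0.15 and 0.07. Without replicate 1 and without replicate 2 of the CDD-3013 group it was 0.14 and 0.09. GINS1 was at -0.33 to -0.18 log2 over the 13 alternatives, and its call was lost in each fit that left out 1 library.

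**Figure D5:**
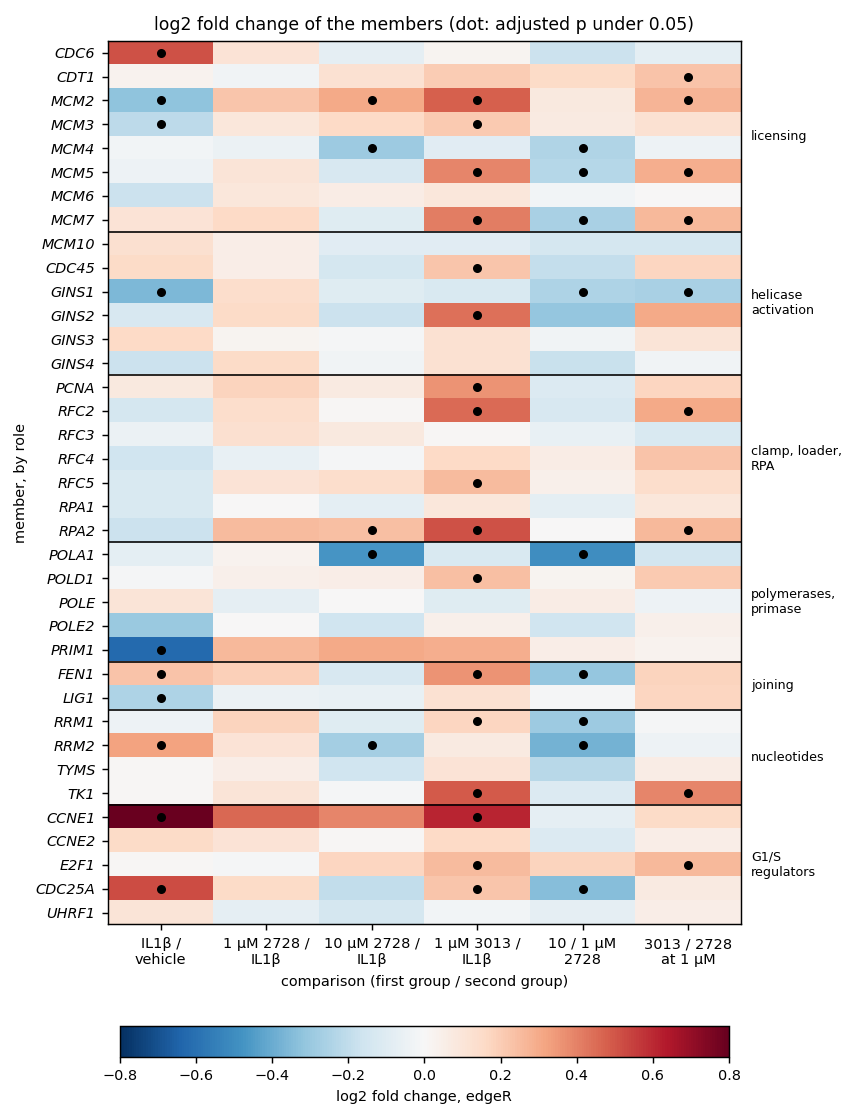
Log2 fold change (color, edgeR) of the 37 genes, grouped by role, in the 6 comparisons, with a dot where the adjusted p is under 0.05. The column of 1 µM CDD-3013 against IL1β holds 17 dots, all of them higher, the column of 10 µM against 1 µM CDD-2728 holds 9, all lower, and the column of 1 µM CDD-2728 against IL1β holds 0.

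Across the 6 comparisons 25 of the 37 genes were called at least once, and MCM2 most often, in 4. The same share over all tested genes was not computed, so 25 of 37 has no background to be read against. With CDD-3013 against IL1β alone, 5723 of 15740 tested genes were called. The 12 never called in the main fit were MCM6, MCM10, GINS3, GINS4, RFC3, RFC4, RPA1, POLE, POLE2, TYMS, CCNE2 and UHRF1. Their log2 fold changes ran from -0.30 to 0.23. With the length and GC offsets MCM6, GINS3, RPA1, TYMS and UHRF1 were called in at least 1 comparison. Per kb, all 12 had a higher mean level than CCNE1, which was called in 2 comparisons. The part of level in which genes were called was not tested. TYMS, CCNE2, GINS4 and GINS3 share 46.6%, 37.1%, 23.6% and 10.9% of their exon bases with genes on the opposite strand, so their counts are uncertain without the strand setting. The called RRM2 and RFC5 share 20.2% and 10.6% with other genes.

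Calls of the main fit were also counted by promoter word, as a description with no test. Only 4 exact words were searched, so a window without one is not shown to lack an E2F site. With CDD-3013 against IL1β, 7 of 19 genes with a word and 8 of 13 without one rose, with 19.0% of all tested genes. Their median log2 fold changes were 0.12 and 0.24. With IL1β against vehicle, 2 of 19 with a word rose and 4 fell, and 3 of 13 without one rose and 1 fell. Of all tested genes, 17.6% rose and 15.0% fell. For the dose comparison 4 of 19 with a word and 3 of 13 without one were lower, with 13.8% of all tested genes. TK1 and CCNE1, whose printed stretches hold no word, rose with CDD-3013 beside E2F1, PCNA and MCM7, whose stretches hold 2, 1 and 1. With the length and GC offsets the calls of TK1, CCNE1, E2F1 and PCNA were lost, and that of MCM7 held.

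Other genes of replication were also called in both directions with IL1β. Of 36 such genes listed, 35 were tested (RNASEH2A had too few counts), and 2 rose (5.7%) and 4 fell (11.4%) with IL1β, both below the 17.6% and 15.0% of all tested genes. The changes were led by the checkpoint adaptor CLSPN, at 0.34 ± 0.08 log2, WDHD1, at -0.37 ± 0.11, the histone mRNA binding protein SLBP, at 0.27 ± 0.08, and the nuclease DNA2, at -0.30 ± 0.11. With 1 µM CDD-2728 only the polymerase epsilon subunit POLE3 was called (2.9%, with 2.03% of all genes higher), at 0.27 ± 0.09 log2. With 10 µM CDD-2728, 5 rose (14.3%, with 15.6% of all genes) and 3 fell (8.6%, with 15.9% of all genes), among them the origin-firing kinase CDC7, at 0.43 ± 0.11, TIMELESS, at 0.30 ± 0.08, CLSPN, at -0.27 ± 0.08, and RPA3, at 0.41 ± 0.12.

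With CDD-3013, 9 of the 35 rose (25.7%, with 19.0% of all tested genes) and 2 fell (5.7%, with 17.3% of all). The polymerase delta subunit POLD2 was at 202 and 209 CPM with IL1β and at 287 and 304 CPM with CDD-3013, a rise of 0.52 ± 0.08 log2. The histone chaperone ASF1B rose by 0.42 ± 0.08, RPA3 by 0.63 ± 0.12 and POLE3 by 0.40 ± 0.09. At 10 µM against 1 µM CDD-2728, 3 were higher (8.6%) and 2 lower (5.7%), against 13.3% and 13.8% of all genes, with CDC7 at 0.42, TIMELESS at 0.24, the clamp loader gene CHTF18 at 0.31 and CLSPN at -0.23 log2. CDD-3013 against CDD-2728 at 1 µM gave 5 higher (14.3%) and 2 lower (5.7%), against 9.85% and 8.01% of all genes. POLD2 (0.38 log2), ASF1B (0.32 log2), RPA3 (0.38 log2) and POLE4 (0.53 log2) led them. This list and those that follow were counted in the main edgeR fit only. The part of transcript length and GC content in their changes with CDD-3013 was not tested.

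Genes that act before replication, in G1, were called in both directions as well. Of 28 G1 cyclins, CDKs, CDK inhibitors and RB or E2F genes, 27 were tested (CCND2 had 0 counts), and 9 rose (33.3%) and 9 fell (33.3%) with IL1β, against 17.6% and 15.0% of all tested genes. CDKN1A, the CDK inhibitor p21, was at 62.6 and 66.8 CPM in vehicle and at 135 and 126 CPM with IL1β, a rise of 1.02 ± 0.09 log2. CDK6, a cyclin D kinase, was at 85.7 and 75.6 CPM in vehicle and at 169 and 155 CPM with IL1β, a rise of 1.01 ± 0.10 log2. Both rose while SKP2, which targets p27 for degradation, fell by 0.92 ± 0.08 log2 and the CDK inhibitor gene CDKN2C fell by 0.89 ± 0.09 log2.

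CDK6 was called in every comparison. It was at 85.8 and 112 CPM with 1 µM CDD-2728, at 62.5 and 62.9 CPM with 10 µM CDD-2728 and at 58.4 and 64.3 CPM with CDD-3013, with log2 fold changes against IL1β of -0.72 ± 0.10, -1.37 ± 0.10 and -1.41 ± 0.10. With 1 µM CDD-2728, 2 genes of the list rose, CDKN2C by 0.41 log2 and SKP2 by 0.30 log2, and CDK6 was the 1 that fell, so 7.4% rose and 3.7% fell, against 2.03% and 2.57% of all genes. With 10 µM CDD-2728, 8 rose (29.6%) and 6 fell (22.2%), against 15.6% and 15.9% of all genes, led besides CDK6 by TFDP2 (0.76 log2), CDKN2B (-0.74 log2) and CDKN1A (0.54 log2).

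With CDD-3013 8 also rose (29.6%) and 6 fell (22.2%), against 19.0% and 17.3% of all genes, led besides CDK6 by CDKN2C (0.64 log2), RB1 (-0.53 log2) and CDK4 (0.62 log2). Between the doses of CDD-2728, 8 were higher (29.6%) and 7 lower (25.9%) at 10 µM, against 13.3% and 13.8% of all genes, led by CDKN1A (0.53 log2), MYC (0.60 log2), CDK2 (-0.43 log2) and CDK6 (-0.65 log2). Between the compounds at 1 µM, 4 were higher (14.8%) and 3 lower (11.1%) with CDD-3013, against 9.85% and 8.01% of all genes, led by CDK6 (-0.69 log2), CDKN1A (0.31 log2), RBL2 (-0.30 log2) and CDKN2A (0.53 log2).

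Of 18 genes listed as G2 and mitotic, 13 were lower (72.2%) and 0 higher at 10 µM against 1 µM CDD-2728, and 5 were not called. Of all tested genes, 13.8% were lower and 13.3% higher. The mitotic kinase AURKA was at 260.1 and 232 CPM with 1 µM and at 161 and 139 CPM with 10 µM, a log2 fold change of -0.72 ± 0.08. BUB1 (-0.51 log2), TPX2 (-0.46 log2) and CCNA2 (-0.43 log2) followed. Against IL1β, 10 of the 18 fell at 10 µM (55.6%, with 15.9% of all genes) and 0 rose, led by AURKA (-0.49 log2), TPX2 (-0.39 log2), PLK1 (-0.32 log2) and CCNB2 (-0.35 log2).

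With IL1β against vehicle, 5 of the 18 fell (27.8%, with 15.0% of all genes) and 0 rose, led by KIF20A (-0.41 log2), CCNB2 (-0.37 log2), BUB1B (-0.32 log2) and KIF11 (-0.26 log2). With 1 µM CDD-2728, KIF20A rose by 0.28 log2 and CCNB1 by 0.24 log2 (11.1%, with 2.03% of all genes). With CDD-3013, 6 rose (33.3%) and 3 fell (16.7%), against 19.0% and 17.3% of all genes, led by KIF20A (0.34 log2), CDC20 (0.36 log2), CCNB1 (0.34 log2) and CENPE (-0.62 log2). Against 1 µM CDD-2728, CDC20 was higher with CDD-3013 by 0.25 log2, and MKI67 (-0.30 log2), CENPE (-0.44 log2) and CENPF (-0.31 log2) were lower. So 5.6% were higher and 16.7% lower, against 9.85% and 8.01% of all genes. Here too the part of transcript length and GC content was not tested.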

How the data were processed

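Poly(A) RNA of 10 libraries in 5 groups of 2 was used. The submitters' processing notes name fastp, STAR, featureCounts and hg38. Versions, the strand setting and the handling of reads that overlap 2 genes are not stated there. The authors deposited whole-number counts of reads per gene ID, which entered every fit unchanged. Symbols came from a table of gene names (61918 of 62750 IDs matched with version, 754 without, 78 unmatched), and lengths, GC content and overlaps from GENCODE 29, with the longest protein-coding transcript taken for each gene.

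After filterByExpr (by group, minimum count 10), counts were scaled by TMM (factors 0.9174 to 1.1139). All 10 libraries entered 1 robust quasi-likelihood model of edgeR 4.0.16 in R 4.3.3, with 5 residual degrees of freedom and a common biological coefficient of variation of 0.06. P-values were adjusted by Benjamini-Hochberg over 15740 genes in each of 6 comparisons, with a threshold of 0.05. SEs and 95% intervals are Wald values. The scripts were tested on simulated data. The 10 correlations of same-numbered deviations were -0.114 to 0.0548, so no strong shift was shared by libraries of the same number. They cannot show whether a number marks a shared culture or day. Replicate 1 had more total counts than replicate 2 in every group.

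Alternatives were relative log expression factors, library totals, no filter, a stricter filter (5 CPM in 2 libraries), a replicate block, loess offsets for length and GC content (span 0.3, 2 rounds, 15317 genes with values, 97.3%), the same with the block, only the 4 libraries compared, DESeq2 1.42.0, and leaving out each library.

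The 37 genes, the role groups and the other lists were chosen with earlier results of these data known. Every gene called in a comparison is named. Library values are given for up to 8 called genes per comparison with the smallest adjusted p and always for E2F1, CCNE1, CCNE2, PCNA, MCM2, CDC6 and RRM2. Of each other list, up to 4 called genes per comparison with the smallest adjusted p are named.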

Additional observations from a re-analysis of the deposited data

How the results depend on the processing

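Of 50 calls of single replication genes, 20 held under all 13 alternatives and 0 reversed: 6 of 10 with IL1β (CCNE1, CDC25A, CDC6, GINS1, MCM2, PRIM1), 4 of 5 with 10 µM CDD-2728 (MCM2, MCM4, POLA1, RRM2), 5 of 17 with CDD-3013 (FEN1, MCM2, MCM5, MCM7, RPA2), 5 of 9 between doses (CDC25A, FEN1, POLA1, RRM1, RRM2) and 0 of 9 between compounds. The causes of the moves given here were not tested. A fit with 1 library left out has 1 library in that arm, which is assumed to vary like the other groups. Such a fit cannot tell a call that depends on the library left out from a call lost because fewer libraries remain. Having 2 libraries a group limits the small changes that can be called. The Wald standard errors of the 37 genes were 0.08 to 0.23 log2, and they are not the errors used by the test that made the calls.

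With library totals, the calls were 3 higher and 19 lower (IL1β), 5 higher (10 µM CDD-2728), 10 higher and 3 lower (CDD-3013), 2 higher (dose) and 5 higher (compounds). The shares of all tested genes were 10.3% and 30.1% (IL1β), 19.6% (10 µM CDD-2728), 14.5% and 22.5% (CDD-3013), 18.0% (dose) and 6.6% (compounds). With the length and GC offsets, 9 were higher with IL1β, 2 with 1 µM CDD-2728 (MCM2, RRM1), 8 lower with 10 µM CDD-2728, and 1 higher and 0 lower between compounds. The shares of all tested genes were, in that order, 22.4%, 3.3%, 19.1%, and 2.0% and 0.9%. With relative log expression factors and with DESeq2, 1 was higher with 10 µM CDD-2728, against 15.5% and 12.4% of all tested genes. The stricter filter gave 5 higher there and 1 between doses (E2F1), against 20.1% and 17.4% of all tested genes. Fitting only the 4 libraries compared gave 5 higher with 10 µM CDD-2728, against 20.3% of all tested genes. It gave 3 higher and 0 lower between compounds, against 6.6% and 6.1%.

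The labels number the replicates 1 and 2 in each group, and a replicate block was tried although nothing states that a number pairs samples. With the block, counts stayed at 5 higher and 5 lower (IL1β), 0 and 0 (1 µM CDD-2728), 17 and 0 (CDD-3013) and 0 and 9 (dose). The counts went to 1 higher and 3 lower with 10 µM CDD-2728, losing RPA2, against 15.0% and 15.4% of all tested genes. Between compounds they went to 6 higher and 1 lower, against 9.0% and 7.5%. The block with the length and GC offsets gave 9 higher (IL1β), 2 higher (1 µM CDD-2728), 8 lower (10 µM CDD-2728) and 0 higher and 0 lower (compounds). The shares of all tested genes were, in that order, 22.2%, 3.3%, 19.0%, and 1.8% and 0.9%.

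Leaving out 1 library at a time, the median log2 fold change of the 37 genes was -0.04 to 0.02 with IL1β. It was 0.05 to 0.16 with 1 µM CDD-2728, -0.07 to -0.02 with 10 µM CDD-2728 and 0.17 to 0.21 with CDD-3013. Between doses it was -0.19 to -0.05, and between compounds 0.07 to 0.15. Counts of calls in these fits are not given, because 1 group then has 1 library. Over all alternatives the median log2 fold change of the 37 genes ranged from -0.19 to 0.02 with IL1β, 0.05 to 0.16 with 1 µM CDD-2728, -0.07 to 0.02 with 10 µM CDD-2728, 0.09 to 0.21 with CDD-3013, -0.19 to -0.03 between doses and 0.04 to 0.15 between compounds.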
